A study of Homo sapiens with 9 samples.

Results

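Doxorubicin is an anthracycline that poisons type II topoisomerases, and the values of the genes that encode DNA topoisomerases were examined in WI-38 cells that had been exposed to it. The genes were taken by name and were TOP2A, TOP2B, TOP1, TOP1MT, TOP3A and TOP3B, together with TDP1 and TDP2, whose enzymes free DNA ends from trapped topoisomerases. Of these 8 genes, 4 had a row among the 6499 genes of the table, namely TOP2A, TOP2B, TOP1 and TDP1. TOP1MT, TOP3A, TOP3B and TDP2 had no row by name or by Ensembl identifier and were not analysed here.

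WI-38 is a human fibroblast line from lung with a limited life span in culture, and all samples came from population doubling 30. The control group (C) received DMSO in place of doxorubicin and then DMSO medium. The doxorubicin group (M) was kept in 1 μM doxorubicin over 12 h, followed by 48 h in DMSO medium. Each group had 3 libraries, and the labels do not say whether these were separate cultures, so that p-values measure the spread between libraries only. The other group, given oridonin after doxorubicin, was not analysed here.

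Topoisomerases relieve the twist and the tangles that arise when DNA is copied, transcribed and separated. Type I enzymes cut one strand of the helix, whereas type II enzymes cut both strands, pass another helix through the gap and reseal it. While the cut is open the enzyme is bound to the DNA end through a tyrosine, and doxorubicin holds the type II enzymes in this state. TOP2A encodes the alpha isoform, which is made in dividing cells, mainly in late S phase, G2 and mitosis, and untangles sister chromatids. TOP2B encodes the beta isoform, which is also made in cells that do not divide and acts at transcribed genes. TOP1 encodes the main nuclear type I enzyme, the target of camptothecin, and TDP1 encodes the phosphodiesterase that removes trapped TOP1 from DNA 3′ ends.

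The stretches of DNA before the starts of TOP2A and TOP2B, the genes of the type II enzymes, are shown here. They come from RefSeq on GRCh38.p14, are written 5′ to 3′ along the gene's minus strand, and stop where a GENCODE 29 exon of the gene begins or at the RefSeq start. Capitals mark CCAAT, the box bound by NF-Y, and TTTGAA, the cell cycle homology region of many G2 and mitosis genes, on either strand (so also as ATTGG and TTCAAA).
TOP2A, chr17:40417951-40418146: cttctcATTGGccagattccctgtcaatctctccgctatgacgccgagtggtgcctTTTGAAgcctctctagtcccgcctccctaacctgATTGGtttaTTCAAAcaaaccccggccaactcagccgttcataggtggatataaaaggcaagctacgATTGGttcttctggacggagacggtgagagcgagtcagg
TOP2B, chr3:25664908-25665157: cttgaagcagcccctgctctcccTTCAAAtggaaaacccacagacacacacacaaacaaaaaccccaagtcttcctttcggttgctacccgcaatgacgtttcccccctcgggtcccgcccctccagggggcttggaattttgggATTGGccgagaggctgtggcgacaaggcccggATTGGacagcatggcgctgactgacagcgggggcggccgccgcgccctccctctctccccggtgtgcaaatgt
In the 250 bases before its RefSeq start, TOP2A held 4 CCAAT and 2 TTTGAA matches, with the fourth CCAAT inside the 54 bases that GENCODE 29 counts as exon and that are not printed. The matches of CCAAT began 244, 160, 93 and 53 bases before the start. TOP2B, whose table entry has 2 starts, held 2 CCAAT and 1 TTTGAA in the window printed and neither motif before its other start. TOP1 had neither motif, and TDP1 had 1 TTTGAA and no CCAAT. All 250 bases of the TDP1 window lie in what GENCODE 29 counts as exon of the gene. Of the 35116 windows of this length in the RefSeq table, 0.874% held at least 4 CCAAT, 9.53% at least 2 and 13.3% at least 1 TTTGAA. These matches are letters in a window and were not tested as binding sites, and their relation to the fold changes was not tested.

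The values are the authors' deposited value per gene and library, read here as TPM (a level per transcript length, scaled to the library). The table holds only genes past the authors' fold change of 1.2 and p of 0.05 on these same libraries. No test below is therefore independent of that choice. The fit, by limma, used log2(TPM + 1) of the 5721 genes whose mean reached 1 TPM, a scale that understates the change of low genes. A gene was called at a fold change over 1.2 and a Benjamini-Hochberg adjusted p under 0.05, which held for 71.2% of the genes tested, with 48.5% lower and 22.7% higher. With 3 libraries against 3, an exact permutation test (two-sided) of 1 gene has 0.1 as its smallest p. As TPM, the listed genes made up 54.3 to 54.8% of a control library and 58.6 to 60.0% of a doxorubicin library, and the read depth is unknown. Of 11 fibroblast markers 6 had a row, with 5 called lower and 1 higher, and VIM, THY1, DCN, LUM and S100A4 had none. The collagen gene COL1A1 was at 2825 ± 76.5 TPM in control and 1944 ± 237 TPM in doxorubicin cells, and the fibronectin gene FN1, the one called higher, was at 4524 ± 223 and 6220 ± 697 TPM (SD, n = 3 each). COL3A1, another collagen gene, was at 35.7% of its control level. Of 4 leukocyte markers 2 had a row, namely PTPRC, at most 0.62 TPM in any library, and CD68, a lysosomal protein gene of macrophages that other cells also express, which was called higher with 47.2 and 91.3 TPM. Of 4 epithelial markers KRT18, called higher with 26.1 and 40.2 TPM, and KRT8, not called, had a row, and of 3 endothelial markers none had. The part of these markers in the results was not tested.

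TOP2A was much lower after doxorubicin, and TOP2B and TOP1 were slightly lower. TOP2A (ENSG00000131747) is a protein-coding gene on chromosome 17, from 40388516 to 40417950 of GRCh38 in GENCODE 29. Its level was 21.71, 26 and 20.84 TPM in control replicates 1, 2 and 3 and 1.4, 0.99 and 1.39 TPM in the doxorubicin replicates. The groups lay far apart, with control replicate 2 the highest and doxorubicin replicate 2 the lowest. The means were 22.9 ± 2.76 and 1.26 ± 0.234 TPM (SD, n = 3 each), so that 5.51% of the control level was left, or 18.1-fold less. On the log2(TPM + 1) scale the fold change was -3.40 (standard error, SE, 0.13, limma adjusted p = 2.2e-08; exact permutation test, p = 0.1). Only 23 of the 5721 genes tested fell further on this scale. These are bulk libraries, in which fewer cells that express TOP2A and less TOP2A RNA per cell cannot be told apart.

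TOP2B (ENSG00000077097, chromosome 3, 25597905 to 25664907) had a small difference. It was at 54.54, 52.63 and 54.34 TPM in control cells and at 43.75, 39.51 and 46.16 TPM after doxorubicin. The groups did not overlap, and the lowest value was that of doxorubicin replicate 2. The means were 53.8 ± 1.05 and 43.1 ± 3.37 TPM (SD, n = 3 each), 80.1% of the control level, and the log2 fold change was -0.32 (SE 0.077, limma adjusted p = 0.00438). Without doxorubicin replicate 2 the log2 fold change was -0.26, which is under the 1.2-fold limit. RARB lies partly across TOP2B on the opposite strand, and whether the counting used strand is not given in the sources used here.

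TOP1 (ENSG00000198900, chromosome 20, 41028818 to 41124487) had 45.83, 45.68 and 43.90 TPM in the control libraries. After doxorubicin it had 37.50, 31.36 and 35.32 TPM. The groups were apart, again with the lowest value in doxorubicin replicate 2. The means of 45.1 ± 1.07 and 34.7 ± 3.11 TPM (SD, n = 3 each) gave 76.9% of the control level and -0.37 on the log2(TPM + 1) scale (SE 0.084, limma adjusted p = 0.00275). RefSeq names 2 pseudogenes of TOP1, which could share reads with it. The antisense gene PLCG1-AS1 overlaps TOP1 on the opposite strand, so the unknown use of strand in counting applies here too.

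TDP1 (ENSG00000042088, chromosome 14, 89954939 to 90044768) was the least abundant of these genes in control cells, at 8.20, 8.70 and 8.33 TPM. In the doxorubicin libraries it stood at 4.36, 4.30 and 6.21 TPM. Doxorubicin replicate 3 lay nearest to the controls, and the groups did not overlap. The means were 8.41 ± 0.259 and 4.96 ± 1.09 TPM (SD, n = 3 each), 58.9% of the control level. The log2 fold change was -0.67 (SE 0.14, limma adjusted p = 0.0018), and -0.82 without doxorubicin replicate 3.

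**Figure D1:**
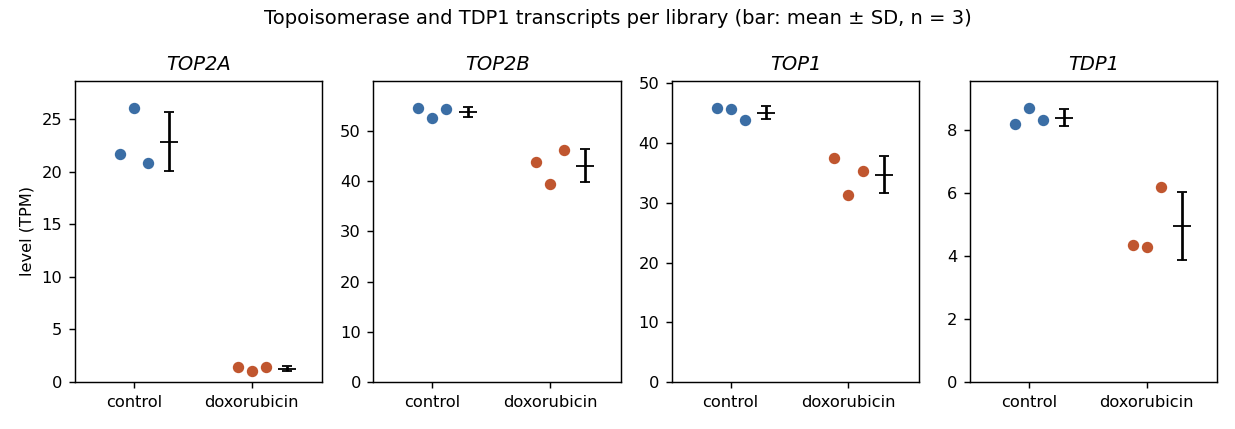
Level in TPM (vertical axes, each from 0) of TOP2A, TOP2B, TOP1 and TDP1 in the 3 control (blue) and 3 doxorubicin (orange) libraries, with the mean ± SD as a black bar. The groups do not overlap for any of the 4 genes, and TOP2A is at 20.84 TPM or more in control and 1.4 TPM or less in doxorubicin libraries, whereas TOP2B is at 39.51 TPM or more in all 6.

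All 4 genes were thus called lower, and none had groups that overlapped. Of all genes tested, 80.7% had groups that did not overlap and 48.4% had them with the doxorubicin group lower. Over the genes tested the median fold change was -0.28 on the log2 scale. Relative to it, TOP2A differed by -3.12, TDP1 by -0.39, TOP1 by -0.090 and TOP2B by -0.034 on the log2 scale. In this fit TOP1 and TOP2B thus sat near the middle of the table, with 46.8% and 49.1% of the genes tested falling further. For TDP1 this share was 18.8%. When each library was centred on its own median, the log2 fold change became -0.057 for TOP2B (limma adjusted p = 0.452) and -0.11 for TOP1 (limma adjusted p = 0.193). Under the same centring it was -3.14 for TOP2A and -0.42 for TDP1, both with an adjusted p under 0.05. The median of a library is here that of genes already past the authors' thresholds, so it is no unchanged reference. After quantile normalization all 4 genes were called lower, at -3.18 for TOP2A, -0.28 for TOP2B, -0.32 for TOP1 and -0.31 for TDP1.

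**Figure D2:**
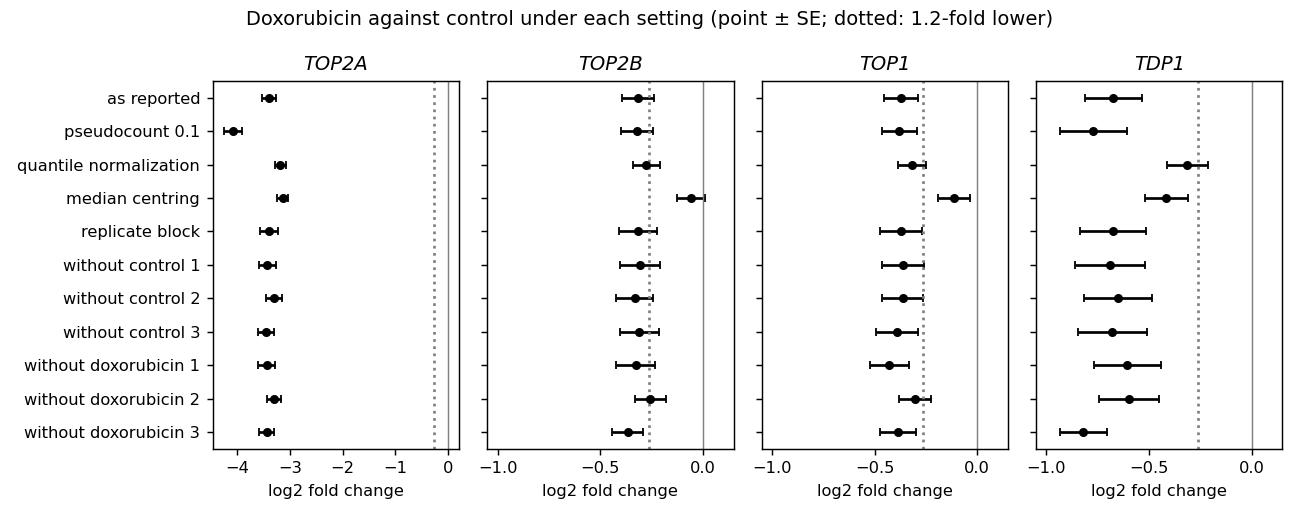
Log2 fold change of doxorubicin against control (horizontal axes, point ± standard error) of each gene under the settings named at the left; the dotted line marks 1.2-fold lower, and the axis of TOP2A is wider than the others. TOP2A lies between -4.09 and -3.14 in every setting shown, and TOP2B and TOP1 come nearest to 0 after median centring.

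TOP2B, TOP1 and TDP1 are long genes, spanning 67003, 95670 and 89830 bp, and TOP2A spans 29435 bp. The tested genes were ranked by span and cut into fixed parts of like size, with 570 genes in each part used here. The median log2 fold change was -0.46 for genes of 47240 to 71068 bp, which include TOP2B near the upper end. It was -0.51 for genes of 71121 to 109728 bp, which include TOP1 and TDP1. TOP2B and TOP1 therefore lay above the median of their part, and TDP1 lay below it. For genes of 21945 to 32492 bp, which include TOP2A, the median was -0.0069. The part of gene span in these values was not tested.

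Ratios between the genes within a library do not move with the scale of that library. TOP2B exceeded TOP2A 2.51-, 2.02- and 2.61-fold in control cells and 31.2-, 39.9- and 33.2-fold after doxorubicin. On the log2 scale the ratio of TOP2A to TOP2B went from -1.24 ± 0.197 to -5.11 ± 0.184 (SD, n = 3 each), a difference of -3.87 (exact permutation test, p = 0.1, the smallest possible). The groups did not overlap, and the gap between them was far wider than the spread within either. With 1 TPM added to every value the difference was -3.08. The ratio of TOP1 to TOP2B differed by -0.060, from -0.25 ± 0.0518 to -0.31 ± 0.0836 (SD, n = 3 each), and its groups overlapped (exact permutation test, p = 0.4). The ratio of TDP1 to TOP1, whose trapped product TDP1 removes from 3′ ends, went from -2.42 ± 0.0506 to -2.83 ± 0.3 (SD, n = 3 each) without overlap (exact permutation test, p = 0.1). Doxorubicin replicate 3, at -2.51, lay close to the controls.

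In control cells the order of levels was TOP2B, TOP1, TOP2A and TDP1 in every library. After doxorubicin it was TOP2B, TOP1, TDP1 and TOP2A in every library, so that TOP2A and TDP1 changed places. No neighbours in either order had ranges that met within a group. TOP2A made up 17.8, 20.9 and 17.5% of the summed TPM of TOP2A, TOP2B and TOP1 in control cells and 1.69, 1.38 and 1.68% after doxorubicin. The share of TOP2B was 44.2 ± 1.70% in control and 54.5 ± 1.44% in doxorubicin cells (SD, n = 3 each), and that of TOP1 was 37.1 ± 0.428% and 43.9 ± 1.39%, without overlap, although the levels of both were lower. The sum of the 3 genes was 119 to 124 TPM in the control libraries and 71.9 to 82.9 TPM in the doxorubicin libraries. The sum of TOP2A and TOP2B, the targets of doxorubicin, was 76.7 ± 1.77 and 44.4 ± 3.58 TPM (SD, n = 3 each), and TOP2A was 29.8 ± 2.89% and 2.82 ± 0.339% of it.

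**Figure D3:**
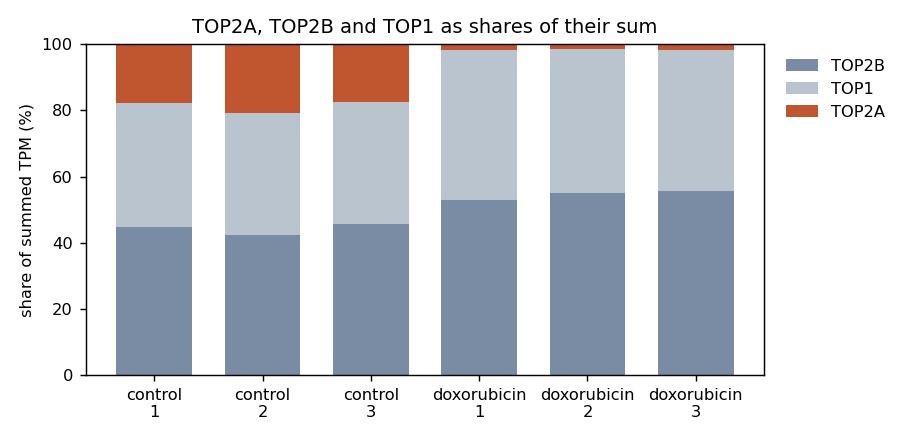
Share in percent of the summed TPM of TOP2A, TOP2B and TOP1 (vertical axis) held by each gene in each of the 6 libraries (horizontal axis). The TOP2A share is 17.5 to 20.9% in the control libraries and 1.38 to 1.69% in the doxorubicin libraries.

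TOP2A was next set beside other genes of G2 and mitosis. All 22 genes of a mitotic list had a row and were called lower, against 48.5% of all genes tested, with a median of -3.09 on the log2 scale. UBE2C, the ubiquitin-conjugating enzyme of the anaphase-promoting complex, had the largest change of the list at -5.18, and it went from 54.9 ± 1.53 to 0.54 ± 0.0794 TPM (SD, n = 3 each). CDC20, an activator of the same complex, had -4.74, the kinase gene PLK1 had -3.81 and CDK1, the mitotic kinase itself, had -3.73. TOP2A lay inside this range, with 8 of the 22 genes falling further and 14 falling less on the log2(TPM + 1) scale. The cyclin genes CCNB1 and CCNB2, at -3.14 and -3.65, lay on either side of it. At the other end stood AURKA, the spindle pole kinase, at -0.70 with 31.5 ± 1.47 TPM (SD, n = 3) after doxorubicin, and the condensin gene SMC2 at -0.97. The order depends on the pseudocount, since many of these genes were near 0 after doxorubicin. MKI67, at -3.13, counts as falling less, but 0.569% of its control level was left, beside 5.51% for TOP2A. With a pseudocount of 0.1, MKI67 had -5.88, TOP2A -4.09 and CCNB1 -3.30. The genes falling further were not counted at that pseudocount. RefSeq names 2 pseudogenes of AURKA, which could share reads with it.

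The log2 level of TOP2A above the median of these genes was 0.32 ± 0.0877 in control libraries and 0.32 ± 0.254 in doxorubicin libraries (SD, n = 3 each), a difference of 0.00159 (exact permutation test, p = 1). With a pseudocount of 0.1 in place of 1 the difference was 0.25. Taken instead against the median of the genes' own fold changes, TOP2A differed by -0.31 on the log2 scale, so that the sign depended on the summary used. Between control libraries TOP2A was highest in replicate 2, and 18 of the 22 mitotic genes were also highest there. So were 6 of the 15 repair genes described below and 1 of the 6 fibroblast markers. The share over all genes tested was not counted. Of the 24 promoter windows of the 19 mitotic genes in the RefSeq table, 11 held at least 2 CCAAT (45.8%) and 12 at least 1 TTTGAA, beside 9.53% and 13.3% of all windows. TOP2B, with 2 CCAAT and 1 TTTGAA in its printed window, reached both counts too. At least 4 CCAAT, as in TOP2A, were held by 2 of the 24 windows (8.33%), beside 0.874% of all windows. Whether the motifs bear on the fold changes was not tested.

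The genes most like TOP2A over the 6 libraries, by Pearson's r of log2(TPM + 1), were KPNA2, TROAP, FKBP5, HMGB2 and H2AZ1, each with an r over 0.999. These libraries fall into separate groups, and 221 genes had an r over 0.99 with TOP2A, so that r mainly reflects the difference between the groups. KPNA2, an importin alpha, had 122 ± 6.02 and 47.3 ± 2.4 TPM, and H2AZ1, a histone variant, had 428 ± 13.9 and 137 ± 4.78 TPM (SD, n = 3 each) in control and doxorubicin cells. TROAP, a spindle-associated protein gene, was listed at 0 in doxorubicin replicate 2 and at 0.13 and 0.07 TPM in the others. USP10, FBXL17 and GNPNAT1 were most like TOP2B (r = 0.998, 0.998 and 0.997). For TOP1 they were HNRNPA3, RUFY2 and MTFR1 (r = 0.999, 0.997 and 0.997), and for TDP1 RNF157, SLC35E2B and CD2AP (r = 0.999 for each). KPNA2 has 3 pseudogenes in RefSeq and HNRNPA3 has 17, which could share reads with these genes.

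Genes whose products act on topoisomerases were considered next. HMGB2 and HMGB1, chromatin proteins that bend DNA and bind the type II enzymes, were both lower. HMGB2 had 75.49, 87.32 and 71.17 TPM in control cells and 13.8, 12.59 and 15.15 TPM after doxorubicin, or -2.41 on the log2(TPM + 1) scale (SE 0.10, limma adjusted p = 3.08e-08). HMGB1 had 291 ± 15.5 and 133 ± 3.5 TPM (SD, n = 3 each), and its many pseudogenes could share reads with it. TOPBP1, named for its binding to topoisomerase II and an activator of the ATR kinase, was also lower, with 7.93 ± 1.17 TPM in control and 3.52 ± 1.02 TPM in doxorubicin cells (SD, n = 3 each). CSNK2A2, a catalytic subunit of casein kinase 2, was not called, at -0.18. These are the 4 of 16 modifier genes with a row, of which 3 were called lower and none higher, beside 48.5% called lower over the genes tested, too few genes to set apart from that share. The other 12, among them TOPORS and the SUMO genes, were not analysed here.

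TOP3A and TOP3B were without a row, but genes of their partners were listed. TOP3A works with the helicase BLM and the scaffolds RMI1 and RMI2 to take apart crossed DNA strands after recombination. BLM had 1.83, 2.11 and 2.57 TPM in control cells and 0.14, 0.22 and 0.5 TPM after doxorubicin, or -1.30 on the log2(TPM + 1) scale (SE 0.15, limma adjusted p = 6.24e-05). RMI1 had 2.55 ± 0.201 and 1.24 ± 0.15 TPM (SD, n = 3 each), or -0.67. RMI2 had -0.76, which was not called after quantile normalization (-0.42, limma adjusted p = 0.121) or median centring (-0.50, limma adjusted p = 0.0609). Of the 8 genes of the list, which also holds the RecQ helicases, 7 had a row, with 5 called lower and none higher, beside 48.5% lower and 22.7% higher over the genes tested. Their median was -0.70 on the log2 scale, beside -0.28 for the genes tested. RECQL4 and RECQL were lower at -0.94 and -0.70, and WRN and RECQL5 were not called, at -0.091 and 0.22. TDRD3, the partner of TOP3B, had no row.

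Repair genes that act on trapped topoisomerases and on the breaks they leave were considered last. Of 29 such genes 16 had a row and 15 were tested, with 10 called lower, 1 higher and 4 not called, beside 48.5% lower and 22.7% higher over the genes tested, and a median of -0.59 on the log2 scale. After quantile normalization 6 of the 15 were called lower and 3 higher, beside 1643 lower and 1889 higher of the 5721 genes tested. Doxorubicin replicate 3, in which TDP1 was highest of its group, was also the highest doxorubicin library in 11 of the 15 repair genes. The same held for 6 of the 6 fibroblast markers tested and 8 of the 22 mitotic genes. The share over all genes tested was not counted, and the part of this library in the results was not tested beyond leaving it out. EME1, a subunit of a nuclease that cuts branched DNA, had 4.55, 4.52 and 2.89 TPM in control cells and 0.94, 0.52 and 1.21 TPM after doxorubicin. The groups did not overlap, and the difference was -1.40 on the log2(TPM + 1) scale (SE 0.18, limma adjusted p = 0.000126). PARP1, the sensor of strand breaks, was at 50.9% of its control level and had -0.95, and PRKDC, the kinase of end joining, was at 58.2% and had -0.78.

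XRCC1, the scaffold of single-strand break repair, where TDP1 also works, was not called, at 0.13, with 15.2 ± 0.676 and 16.8 ± 0.658 TPM (SD, n = 3 each). After quantile normalization it was called higher at 0.34, as was XRCC4, a cofactor of end ligation, at 0.38.

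**Figure D4:**
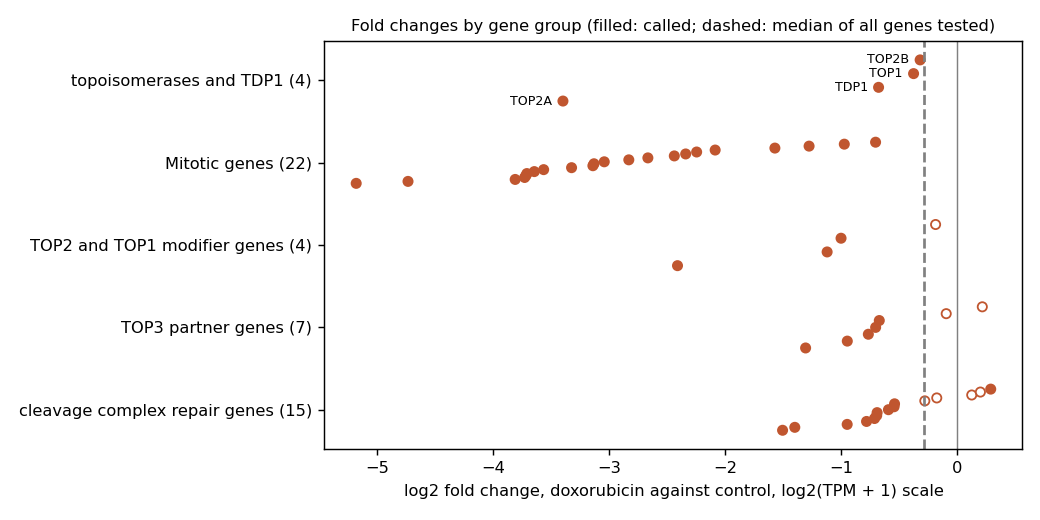
Log2 fold change of doxorubicin against control on the log2(TPM + 1) scale (horizontal axis) of each tested gene, by group (vertical axis, number of genes in brackets). Filled points were called, the dashed line is the median of all genes tested at -0.28, and TOP2A at -3.40 lies among the mitotic genes while TOP2B at -0.32 lies next to the dashed line.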

How the data were processed

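RNA of WI-38 cells was sequenced in 3 groups of 3 samples, and the table holds the 3 control and 3 doxorubicin libraries. The deposited values were made by the authors, per the labels with HISAT2, StringTie and RSEM among the tools, and are read here as TPM because the header names no unit and the listed genes sum to less than a whole library. If it were FPKM, fold changes would shift by a factor common to all genes of a library, and ratios within a library would not. The labels also name CASAVA, DESeq2 and edgeR, and the mouse build GRCm38, while all 6499 identifiers are human Ensembl genes, so the build used is not clear and positions are those of GENCODE 29 on GRCh38. The table also holds the authors' fold changes, p-values, adjusted p-values and group means, which were read only to check that every gene passed a fold change of 1.2 and a p of 0.05.

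Genes with a mean under 1 TPM were left out, a pseudocount of 1 was added before log2, and group means were fitted with limma 3.58.1 (trend and robust) in R 4.3.3. The fit was tested on simulated data first. Ratios and single genes were tested with exact two-sided permutation tests (SciPy 1.17.1). The members and gene lists were chosen with earlier results of these data known. Named genes are the members, up to 4 genes per list and direction by size of change with others of the lists beside them, and the 5 genes (TOP2A) or 3 genes (other members) with the highest Pearson r. Alternatives were another pseudocount, other filters, quantile normalization, median centring, the replicate block, eBayes without trend, other thresholds, and each library left out. TPM keeps no read depth, so precision was judged from the 3 libraries a group. Single values of some genes of the lists are not reported here, although the list counts include them.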

Additional observations from a re-analysis of the deposited data

How the results depend on the processing

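TOP2A and TDP1 were called lower under every setting run. Leaving out each library in turn gave log2 fold changes of -3.46 to -3.31 for TOP2A, -0.36 to -0.26 for TOP2B, -0.43 to -0.30 for TOP1 and -0.82 to -0.60 for TDP1, and TOP2B lost its call without doxorubicin replicate 2 by falling under 1.2-fold. Median centring ended the calls of TOP2B (-0.057) and TOP1 (-0.11), but the median of genes chosen as changed is no unchanged reference. The genes called lower went from 2775 to 1643 after quantile normalization and 1735 after median centring, and those called higher from 1301 to 1889 and 2588, so that 53.5% and 59.9% of the calls were higher, against 31.9%. The difference in the log2 ratio of TOP2A to TOP2B was -3.08 with 1 TPM added, and that of TOP2A above the mitotic median was 0.25 with a pseudocount of 0.1, which weighs values near 0 more, and -0.10 to 0.14 with each library left out. Of the 15 repair genes tested, 6 were called lower after quantile normalization and 3 higher after it and after median centring. Over the 5721 genes tested, 1889 and 2588 were called higher under these scalings. With each library left out, 0 to 1 repair genes were called higher. Of the TOP3 partner genes 1 was higher under both scalings (RECQL5, at 0.50 and 0.48). WRN turned to 0.29 and 0.17 and CSNK2A2 to 0.041 and 0.077 under quantile normalization and median centring, without a call. The causes of these shifts were not tested. The median over tested genes was 0.046 on the log2 scale when only genes of at least 5 TPM were tested, against -0.28.

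Same-numbered control and doxorubicin libraries did not deviate together (correlations of -0.23 to -0.06 across genes), so the numbers were not taken as pairs. With the replicate block 3892 genes were called in place of 4076, and TOP2A, TOP2B, TOP1 and TDP1 were still called lower.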
